A study of Mus musculus with 6 samples.

Results

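Intermediate filament genes of muscle and of neurons were followed in satellite cells of control mice and of mice with a conditional deletion of Hira (cKO). The group held 10 genes of 55536 in the count files, chosen by their gene symbols: the muscle genes Des and Synm, the progenitor and mesenchymal genes Vim and Nes, the glial gene Gfap, and the neuronal genes Prph, Ina, Nefl, Nefm and Nefh. The list was drawn up with the differences between cKO and control already known, so the calls given for its members describe each gene and do not test the group. Satellite cells are the stem cells of skeletal muscle, and HIRA is a chaperone that places the histone variant H3.3 in chromatin. The question was how the genes of the muscle cytoskeleton and of other lineages are expressed when it is removed from these cells. RNA-seq was performed on 3 control and 3 cKO samples. Control mice were Pax7CreErt2;Hira fl/+ and cKO mice Pax7CreErt2;Hira fl/fl, so that both carried the tamoxifen-inducible Cre under Pax7, and the controls, which the sample labels call WT, carried a floxed Hira allele as well. All were adult male mice of 8 to 12 weeks on a C57BL/6J background that received the tamoxifen diet and a BaCl2 injury of the tibialis anterior muscle. Cells were sorted 5 days post-injury as CD34+ ITGA7+ CD45- TER119- SCA1- and cultured for 48 h in high serum with bFGF. The samples are described as independent RNA samples, and whether each came from separate mice is not given in the sources used here, so the p-values measure the spread between these samples. Cre acts only in cells that have expressed Pax7, and other cells that passed the sort would keep Hira.

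Intermediate filaments are rope-like polymers of coiled-coil proteins that give cells mechanical strength, and each cell type builds them from its own set of genes. In muscle, desmin links the myofibrils at the Z-discs, while vimentin and nestin form the network of proliferating myoblasts and give way to desmin as fibers mature. In neurons, peripherin, alpha-internexin and the neurofilament subunits fill the axon, and GFAP is the filament protein of astrocytes and of some Schwann cells.

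The proteins are built around a common rod, and a stretch at its start is much alike in Des, Vim, Gfap, Prph and Ina. Below are the 30 coding bases of Des whose closest in-frame matches in Vim, Gfap, Prph and Ina differed least, from the GENCODE M21 transcripts on mm10, written 5′ to 3′ with capitals at bases unlike Des. They are shown as an example of how alike these genes can be over part of a read. Nefl, Nefm and Nefh were not searched for this stretch. The stretch lies at chr1:75360763-75360792 in Des, at chr2:13574765-13574794 in Vim, at chr15:99055534-99055563 in Prph and at chr19:47015061-47015090 in Ina, all on the plus strand, and at chr11:102896866-102896895 on the minus strand in Gfap.
Des: gaccgcttcgccaactacatcgagaaggtg
Vim: gaccgcttTgccaactacatcgaCaaggtg
Prph: gaccgcttcgccaactTcatcgagaaggtg
Gfap: gaccgcttTgcTaGctacatcgagaaggtC
Ina: gaccgcttcgccGTGtTcatcgagaaggtg
Prph differed from Des at 1 of the 30 bases, Vim at 2 and Gfap and Ina at 4 each. The closest in-frame stretch differed at 12 bases in Nes and at 13 in Synm. Even so, the longest run of identical bases between the transcripts of any pair of members, outside the overlap of Nefl and Nefm described further on, was 36 bases, between Des and Prph. Reads were 75 bp long, so no read from these transcripts could match another member over its whole length without a mismatch, Nefl and Nefm apart.

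The 250 bases upstream of the transcription start were read from the RefSeq table of GRCm38.p6, which matched 7 of the 10 members (Des, Synm, Vim, Nes, Gfap, Prph and Ina). Those of Des and Nes, which were lower in cKO, and of Prph and Synm, which were higher, are printed 5′ to 3′ with E-boxes in capitals, since the E-box CANNTG is the motif bound by the myogenic factors of the MYOD family. They lie at chr1:75360042-75360291 (Des, plus strand), chr3:87970843-87971092 (Nes, plus strand), chr15:99054924-99055173 (Prph, plus strand) and chr7:67759743-67759992 (Synm, minus strand).
Des: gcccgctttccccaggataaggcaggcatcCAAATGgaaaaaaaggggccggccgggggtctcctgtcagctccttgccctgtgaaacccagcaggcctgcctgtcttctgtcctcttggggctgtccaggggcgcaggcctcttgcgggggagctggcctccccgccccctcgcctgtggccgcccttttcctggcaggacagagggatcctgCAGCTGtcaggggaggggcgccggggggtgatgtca
Nes: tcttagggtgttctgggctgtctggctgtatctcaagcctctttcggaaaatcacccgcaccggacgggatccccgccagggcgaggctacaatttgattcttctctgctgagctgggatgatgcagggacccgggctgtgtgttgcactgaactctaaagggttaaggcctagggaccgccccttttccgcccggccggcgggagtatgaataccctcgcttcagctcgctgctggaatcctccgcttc
Prph: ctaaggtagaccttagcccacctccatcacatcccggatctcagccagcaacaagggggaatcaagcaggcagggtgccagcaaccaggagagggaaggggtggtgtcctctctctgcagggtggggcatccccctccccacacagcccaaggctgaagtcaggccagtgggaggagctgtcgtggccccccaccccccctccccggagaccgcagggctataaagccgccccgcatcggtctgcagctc
Synm: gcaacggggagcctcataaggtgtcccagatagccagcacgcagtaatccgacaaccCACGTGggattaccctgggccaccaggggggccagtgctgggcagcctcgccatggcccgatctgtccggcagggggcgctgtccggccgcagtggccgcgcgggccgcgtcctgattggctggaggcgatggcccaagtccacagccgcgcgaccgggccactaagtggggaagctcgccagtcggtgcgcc
Des held 2 E-boxes, CAAATG and CAGCTG. Synm held 1, CACGTG, and Ina 1, CAGCTG, while the windows of Nes, Vim, Gfap and Prph held 0. Of 32851 promoter windows of this length, 66.2% held at least 1 E-box, so its presence in 3 of the 7 is no feature of the group. The TATA box TATAAA, searched on both strands, was found in Prph and Vim and in 12.4% of all windows, and it overlapped no E-box.

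Between 47944477 and 63323577 reads per sample were assigned to genes, and pseudogenes took at most 12.3% of them. Hira itself was counted 375, 348 and 341 times in the control samples, against 161, 293 and 272 times in the cKO samples, with every cKO sample below every control sample in CPM, the counts scaled to a common library total. The difference was -0.43 as log2 fold change (SE 0.12), with an adjusted p of 0.0237 in the quasi-likelihood test of edgeR, adjusted over all genes by Benjamini-Hochberg. Without control replicate 1 the adjusted p was 0.104, and without cKO replicate 1 the log2 fold change was -0.29. Reads of Hira thus remained in all cKO samples, at a mean of 4.39 CPM against 5.89 CPM in control. The counts are given per gene, so the deleted part was not measured by itself. By RT-qPCR the paper reports a sharp fall of Hira in cKO satellite cells, and by immunostaining it found no HIRA protein there. Of the exon bases of Hira 44.7% are shared with Gm28539 on the same strand, which had 0 CPM in all samples. Whether reads on the shared bases were counted for Hira or dropped as matching both genes is not given in the sources used here. Markers of satellite cells were present in both groups and summed to 1153 to 1185 CPM in control and 1089 to 1111 CPM in cKO, led per kb of exon by Itga7 (614 and 574 CPM) and Cdh15 (161 and 169 CPM).

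Des, Vim and Nes made up nearly all intermediate filament RNA of the group in these cells. Per kilobase of annotated exon, Des stood at 852 ± 7.38 CPM in control against 779 ± 46.3 CPM in cKO (SD, n = 3), Vim at 570 ± 5.37 and 618 ± 12.9 CPM, and Nes at 550 ± 6.13 and 509 ± 21.2 CPM. Together they took 99.9% or more of the summed level of the 10 genes in every sample, and the 10 genes took 0.895% to 0.950% of all counts. The order Des, Vim, Nes was the same in both groups, with no overlap between neighbours. It depends on the length taken for each gene: with the longest transcript in place of all exons, Vim was at 924 CPM per kb and Des at 1056 in control, and in cKO the order turned, with Vim at 1001 and Des at 966 and overlapping ranges.

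**Figure D1:**
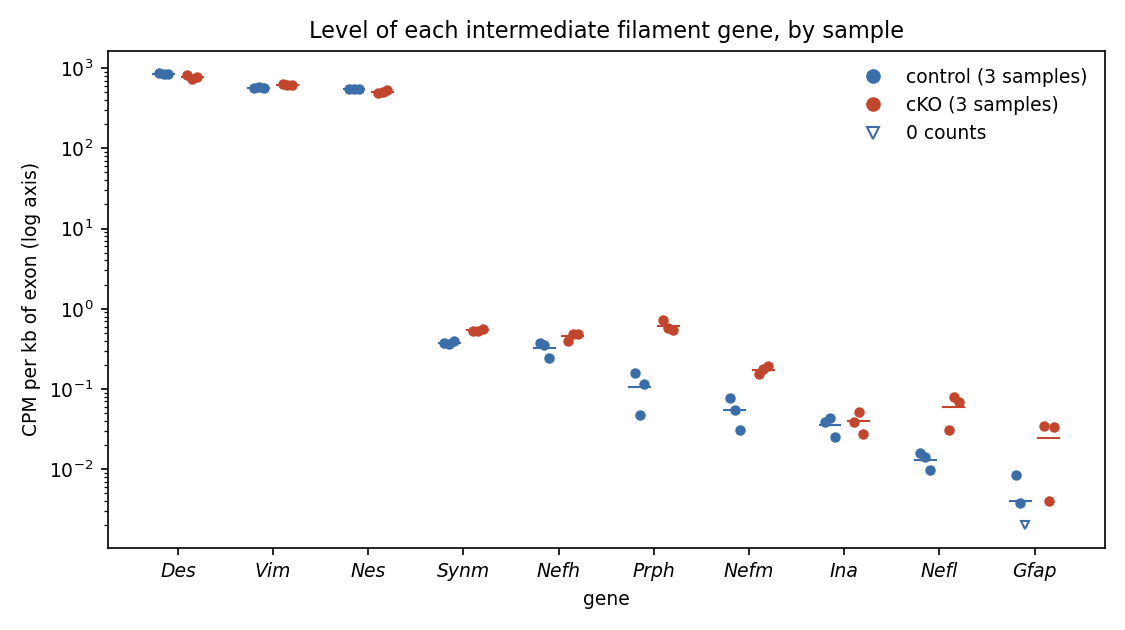
Level of each gene in CPM per kilobase of exon on a log axis, with 1 point per sample, short lines at the group means and an open triangle for the sample with 0 counts. Des, Vim and Nes lie between 488 and 861, and the other 7 genes lie below 1 in all samples.

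The other 7 genes stood below 1 CPM per kb. In control the order was Synm (0.377 CPM per kb), Nefh (0.322), Prph (0.107), Nefm (0.0540), Ina (0.0357), Nefl (0.0131) and Gfap (0.00404). The ranges of Synm and Nefh overlapped, as did those of Prph and Nefm and of Nefm and Ina. In cKO the order was Prph (0.611 CPM per kb), Synm (0.543), Nefh (0.455), Nefm (0.174), Nefl (0.0599), Ina (0.0395) and Gfap (0.0242). Prph thus moved from the sixth to the fourth place among the 10 genes, although its range in cKO overlapped that of Synm. The ranges of Nefl and Ina and of Ina and Gfap also overlapped in cKO.

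Of the 10 genes, 7 passed the filter on low counts and were tested, and Gfap, Ina and Nefl did not. At an adjusted p under 0.05, 4 were higher in cKO (Prph, Nefm, Synm and Vim) and 2 were lower (Des and Nes), while Nefh was not called. Over the 22404 genes tested, 15.8% were called in either direction, 9.38% as higher and 6.46% as lower (2101 and 1448 genes, or 2462 and 1057 when libraries were scaled by total counts alone). Because the members were listed with this contrast known, nothing is read from the difference between their count and that background. Samples of the groups did not overlap in CPM for 8 members: cKO was above control for Prph, Nefm, Nefl, Nefh, Synm and Vim, and below it for Des and Nes. Such separation was found for 20.3% of tested genes with cKO higher and for 11.1% with cKO lower. Nefl was not tested, so it lies outside this background. The median log2 fold change over all genes tested was -0.0011.

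**Figure D2:**
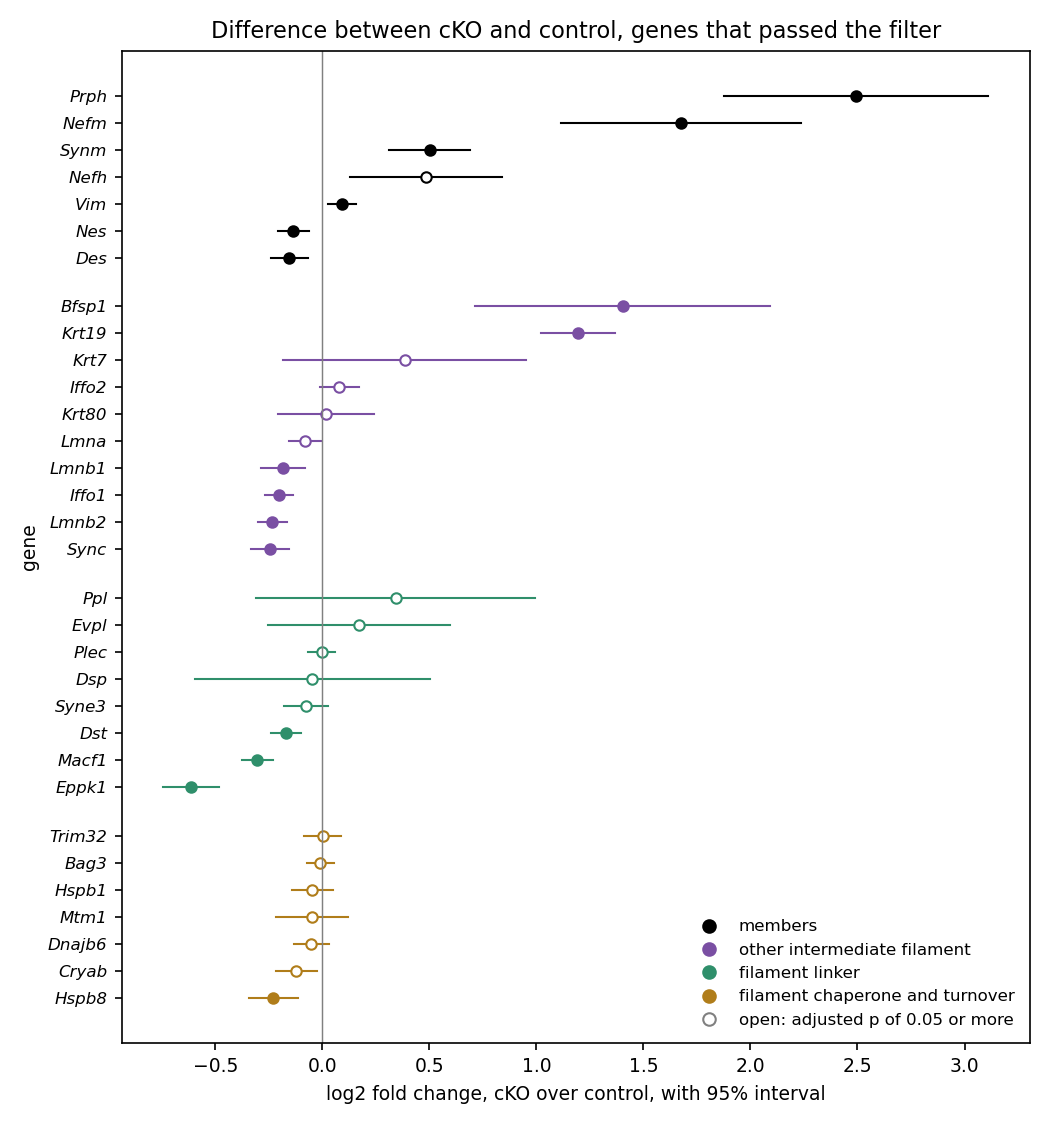
Log2 fold change of cKO over control with 95% intervals for tested members and tested genes of the filament lists, with filled points for an adjusted p under 0.05. Prph and Nefm lie farthest to the right among the members, and Des and Nes lie just left of 0.

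Des, which encodes desmin (chromosome 1, 75360329 to 75368579, plus strand), was counted 182695, 201659 and 195316 times in the control samples, against 148696, 162895 and 162987 times in the cKO samples. In CPM the control samples stood at 3231, 3185 and 3181 and the cKO samples at 3101, 2754 and 2919. All cKO samples were below all control samples, and cKO replicate 1 was the nearest to them. Des fell by 0.15 on the log2 scale (SE 0.04, adjusted p = 0.0153, edgeR), a mean level 8.57% lower. The call was lost when any control sample was left out, with adjusted p values of 0.0509, 0.0594 and 0.0579 without control replicates 1, 2 and 3.

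Synm encodes synemin (chromosome 7, 67730160 to 67759742, minus strand), a large filament protein that copolymerizes with desmin or vimentin. It was counted 169, 181 and 192 times in the control samples, against 200, 251 and 251 times in the cKO samples, or 2.86 to 3.13 CPM in control and 4.17 to 4.50 CPM in cKO. The groups were well apart relative to the spread within each. Synm rose, with a log2 fold change of 0.50 (SE 0.09, adjusted p = 0.00102, edgeR), opposite in sign to that of its partner Des, and it ranged from 0.46 to 0.53 over 11 alternatives of the fit, with the call kept in each.

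Markers of muscle differentiation moved in the direction of Des. Of 12 such genes, 10 were called lower and 0 higher, and their sum was 37450 to 38710 CPM in control and 30770 to 32870 CPM in cKO. The list was led per kb of exon by Acta1 (6032 and 5853 CPM), which overlapped between the groups and was not called, and Myh3 (10800 and 9739 CPM). Ttn, named here after its values were seen, weighed heavily in the fall of the sum, with 13680 CPM in control and 10120 CPM in cKO. Of 10 satellite cell markers, 7 were called lower and 0 higher. Without control replicate 2, control replicate 3 or cKO replicate 3, only 4 were called lower in each case, since Dmrt2, Heyl and Itga7 lost their calls. In bulk RNA, fewer cells of a type and less RNA per cell cannot be told apart, and the part of either in the level of Des was not tested.

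Vim encodes vimentin (chromosome 2, 13573927 to 13582826, plus strand), the filament protein of myoblasts and of mesenchymal, endothelial and immune cells. It was counted 152131, 173071 and 165025 times in the control samples, against 143722, 172288 and 160766 times in the cKO samples. In CPM these were 2690, 2733 and 2688 in control against 2998, 2913 and 2880 in cKO, with no overlap. The change in Vim was 0.09 on the log2 scale (SE 0.03, 95% interval 0.03 to 0.16), at the edge of the threshold with an adjusted p of 0.0499 (edgeR). The call was lost with RLE size factors (0.0528), without control replicate 1 (0.149), 2 (0.144) or 3 (0.175), and without cKO replicate 1 (0.0922) or 3 (0.0819). It was also lost with the replicate number as a block (0.0965). It was kept with DESeq2 (0.0316).

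Nes encodes nestin (chromosome 3, 87971078 to 87980451, plus strand), which joins vimentin or desmin in the filaments of dividing muscle and neural progenitors. It was counted 202004, 221397 and 215905 times in the control samples, against 150089, 193426 and 189991 times in the cKO samples, or 3572, 3496 and 3517 CPM and 3130, 3270 and 3403 CPM. The cKO samples were all below the control samples, with cKO replicate 1 the lowest. Nes fell by 0.13 on the log2 scale (SE 0.03, adjusted p = 0.0131, edgeR). As for Des, leaving out a control sample ended the call, with adjusted p values of 0.0517, 0.0517 and 0.055 without control replicates 1, 2 and 3.

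The balance between these filament genes can be read within each sample, free of any scaling between libraries. The ratio of Des to Vim counts was 1.20, 1.17 and 1.18 in the control samples and 1.04, 0.946 and 1.01 in the cKO samples, a mean of 1.18 ± 0.0179 against 0.998 ± 0.0466 (SD, n = 3). The ratio of Nes to Vim was 1.33, 1.28 and 1.31 in the control samples and 1.04, 1.12 and 1.18 in the cKO samples, a mean of 1.31 ± 0.0245 against 1.12 ± 0.0690. Both ratios were lower in every cKO sample than in any control sample. The differences in log2 ratio were -0.25 for Des to Vim and -0.23 for Nes to Vim. The exact two-sided permutation test gave p = 0.1 for each, the smallest that 3 against 3 samples allow. Des and Nes were lower and Vim higher in every cKO sample, so the ratios had to separate. The test therefore adds nothing to the values of the single genes.

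**Figure D3:**
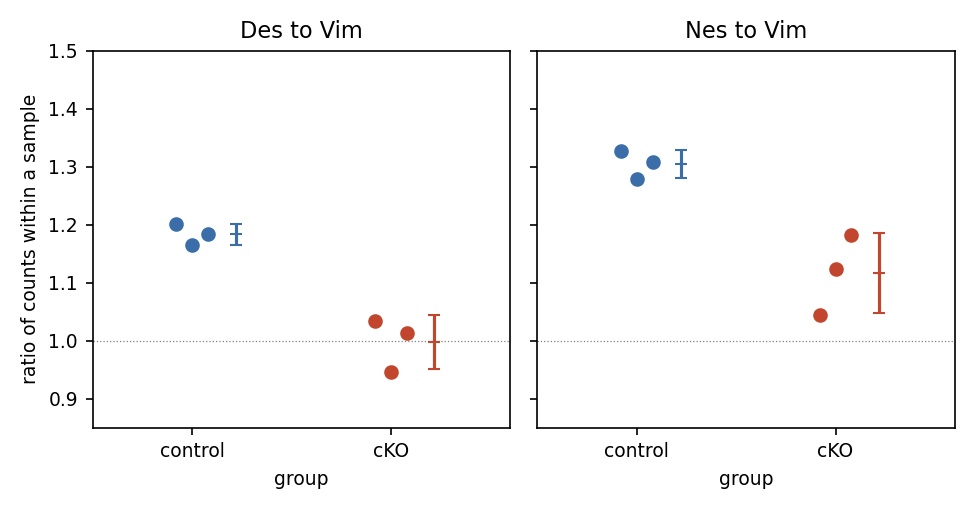
Ratio of Des to Vim counts and of Nes to Vim counts within each sample, with 1 point per sample and bars for mean ± SD, and a dotted line at a ratio of 1. The axis does not start at 0, and control samples lie above cKO samples in both panels.

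Markers of several other Vim-expressing cells were higher in cKO. Of 12 macrophage genes 12 were called higher, with a summed level of 125 to 131 CPM in control and 267 to 313 CPM in cKO, led per kb of exon by Lyz2 and C1qa. Of 12 fibroblast and mesenchymal genes 6 of the 11 tested were called higher and 0 lower, with sums of 1122 to 1198 and 1537 to 1717 CPM, led per kb by Col1a2 and Col3a1. Of 10 endothelial genes 5 were called higher and 0 lower, with sums of 21.7 to 23.2 and 32.0 to 37.9 CPM, led per kb by Cdh5 and Flt1. This count rested on single libraries: it was 2 without cKO replicate 2 or control replicate 2, 3 without control replicate 3, and 3 with DESeq2 or the replicate block, and Flt1 and Kdr were called in each. Of 10 smooth muscle and pericyte genes 9 were tested, 8 called higher and 1 lower, with sums of 3264 to 3318 and 3580 to 3726 CPM, led per kb by Acta2 and Pdgfrb. Acta2 made up most of this sum, with means of 2929 CPM in control and 3180 CPM in cKO and a log2 fold change of 0.09. Its call was lost in 5 of the 11 alternatives. The count of genes called higher was 5 without control replicate 2 or 3, where Acta2, Cspg4 and Tagln lost their calls. The gene called lower, Abcc9, was not called without control replicate 3. Kcnj8, a pericyte channel gene, had at most 3 counts in each sample. None of the marker lists had a gene at 0 in all samples. The part of these cells in the levels of Vim, or in those of the genes below, was not tested.

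**Figure D4:**
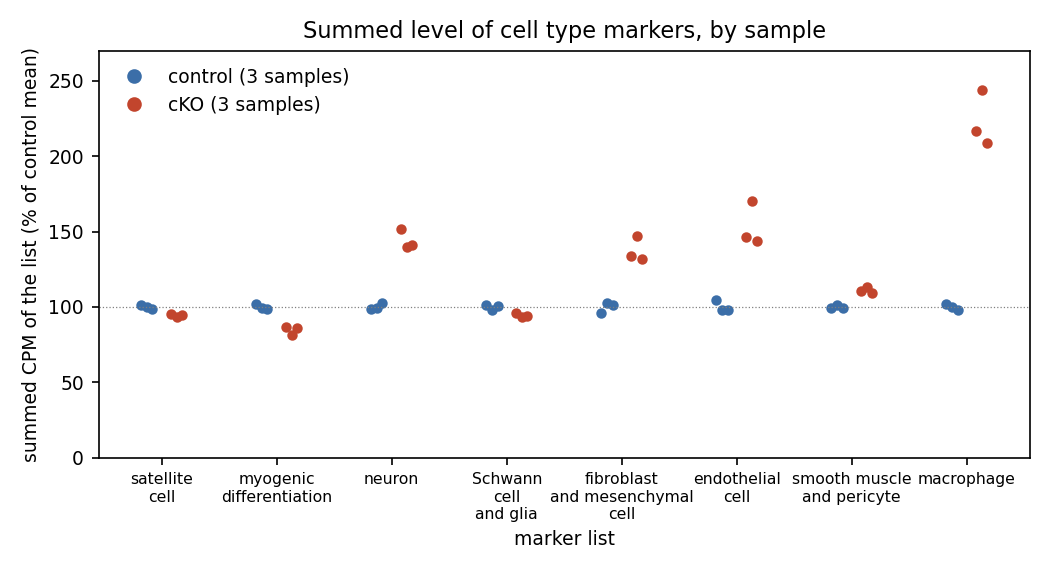
Summed CPM of each marker list in each sample, as percent of the control mean of that list, with a dotted line at 100%. Macrophage markers in cKO lie above 200%, and satellite cell and myogenic differentiation markers in cKO lie below 100%.

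Among the tested members, the neuronal genes Prph and Nefm had the largest log2 fold changes, from very low levels. Prph encodes peripherin (chromosome 15, 99055174 to 99058978, plus strand), the filament protein of peripheral neurons. It was counted 18, 6 and 14 times in the control samples, against 69, 68 and 60 times in the cKO samples, or 0.0948 to 0.318 CPM in control and 1.08 to 1.44 CPM in cKO. The groups were far apart, and control replicate 2 was the lowest sample. Prph rose by a log2 fold change of 2.49 (SE 0.29, adjusted p = 2.11e-05, edgeR), a ratio of mean levels of 5.71. Prph had 2 of 3 control samples and 3 of 3 cKO samples above the filter limit of 0.173 CPM. The filter asks for 3 samples, which control did not give, so Prph entered the test through the group where it was high. Its call is therefore a description of the gene and no independent support. Over the 11 alternatives the log2 fold change ranged from 2.13 to 2.88, and the call was kept in each.

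Nefm encodes the medium neurofilament subunit (chromosome 14, 68082590 to 68124846, minus strand). It was counted 25, 20 and 11 times in the control samples, against 42, 61 and 62 times in the cKO samples, or 0.179 to 0.442 CPM and 0.876 to 1.11 CPM, without overlap. Nefm rose by a log2 fold change of 1.68 (SE 0.26, adjusted p = 0.000358, edgeR), and it ranged from 1.40 to 1.99 over the alternatives with the call kept in each. Nefl, the light subunit (chromosome 14, 68083863 to 68089095, plus strand), was counted 3, 3 and 2 times in the control samples, against 5, 16 and 13 times in the cKO samples. Its groups did not overlap either, with cKO replicate 1 close to the control samples. It did not pass the filter. The pooled counts were 8 in control and 34 in cKO, a ratio of 4.73 after scaling to the library totals (95% exact interval 2.15 to 11.8, counting error only). When the filter was dropped, edgeR gave an adjusted p of 0.00412 for Nefl. That fit also lowered the adjusted p of each tested member at a nearly unchanged log2 fold change, for Des from 0.0153 to 1.92e-08. Its adjusted p values are therefore not comparable with those of the main fit.

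The counts of Nefl and Nefm are not fully separate. Nefl lies inside the bounds of Nefm on the opposite strand, and 1108 exon bases belong to both, which is 32.8% of those of Nefl and 19.2% of those of Nefm. Of the 75-base windows of the transcripts, 31.3% in Nefl and 18.1% in Nefm occur in the other gene. The kit keeps the strand, but the strand setting of the counting is not given in the sources used here, and without it reads from the shared bases cannot be told apart. How much either count owes to the other gene was not tested.

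Nefh, the heavy neurofilament subunit (chromosome 11, 4938754 to 4948064, minus strand), was counted 84, 89 and 59 times in the control samples, against 76, 113 and 109 times in the cKO samples. The levels were 1.49, 1.41 and 0.961 CPM in the control samples against 1.59, 1.91 and 1.95 CPM in the cKO samples, so that cKO replicate 1 lay just above the highest control sample. Nefh had a log2 fold change of 0.49 (SE 0.17, 95% interval 0.13 to 0.84), and the adjusted p of 0.0617 (edgeR) missed the threshold. It was called without cKO replicate 1 (0.0299), without control replicate 1 (0.0490) and with no filter on low counts (0.0147), but not with DESeq2 (0.162), and without control replicate 3 the log2 fold change was 0.31 (0.247). Ina, which encodes alpha-internexin (chromosome 19, 47014698 to 47025327, plus strand), was counted 7, 9 and 5 times in the control samples, against 6, 10 and 5 times in the cKO samples. The groups overlapped, and the ratio of pooled counts was 1.11 (95% exact interval 0.578 to 2.14, counting error only), so no difference was detectable at this depth. Of the exon bases of Ina, 14.1% lie opposite to Nt5c2, which stood at 74.4 to 88.5 CPM, and whether reads of that gene entered these few counts was not tested.

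Gfap (chromosome 11, 102887336 to 102900912, minus strand) was close to the detection floor. It had counts of 2, 1 and 0 in the control samples and 7, 1 and 8 in the cKO samples, and cKO replicate 2 lay within the control range. The count of 0 in control replicate 3 allows up to 3 counts in that library. The ratio of pooled counts, 3 in control and 16 in cKO, was 5.93 (95% exact interval 1.70 to 31.8, counting error only). With no filter on low counts edgeR gave an adjusted p of 0.0829. Of 12 markers of Schwann cells and glia, 10 were tested, with 2 higher (Ngfr and L1cam) and 1 lower (Erbb3), and the log2 fold change was above 0 for 9 of the 10 (median 0.34). Erbb3 made up most of the summed level of 246 to 254 CPM in control and 234 to 241 CPM in cKO. Without it, a sum chosen after seeing the data, the range was 33.8 to 36.4 CPM in control and 44.8 to 52.2 CPM in cKO. The part of glial RNA in the counts of Gfap was not tested. Gfra3 had at most 3 counts in each sample.

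Other neuronal genes went both ways. Of 14 neuron markers 9 were tested, 3 were higher and 2 lower, and the summed level was 82.7 to 86.2 CPM in control and 117 to 128 CPM in cKO. Tubb3, the neuronal beta-tubulin, made up most of this sum and rose from 48.1 ± 1.35 to 77.6 ± 2.72 CPM (SD, n = 3), a log2 fold change of 0.67. Uchl1, a ubiquitin hydrolase abundant in neurons, had a log2 fold change of 0.57. The remaining called genes, named here after their values were seen, were Stmn2 (0.70) and the microtubule-associated Map2 (-0.45) and Mapt (-0.74). Rbfox3 and Snap25, which mark mature neurons, had at most 3 counts in each sample. The part of neuronal RNA in the levels of Prph, Nefm, Nefl and Nefh was not tested.

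Overlap with other annotated genes was limited for the rest. Vim, Nes, Gfap, Prph and Nefh shared no exon base with another gene on either strand. Des shared 220 exon bases, or 5.86%, with the antisense gene Gm15179, which stood at 0.212 to 0.396 CPM, far below Des. Synm shared 84 exon bases with Ttc23 (15.1 to 16.4 CPM) and 426 with Gm45102 (at most 0.0474 CPM), together 6.43% of its exon bases, all on the opposite strand. No member shared exon bases with another gene on its own strand.

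Of the remaining genes of the filament system, 2 were called higher and 8 lower. Over all genes tested, 9.38% were called higher and 6.46% lower, and nothing is read from the difference, since the lists were chosen with earlier results known. Of 17 other intermediate filament genes 10 were tested, with 2 called higher and 4 lower. Higher were Krt19, a keratin of simple epithelia, from 2.90 ± 0.128 to 6.76 ± 0.289 CPM (SD, n = 3; log2 fold change 1.20), and Bfsp1, the lens filament gene filensin, whose counts were 11, 6 and 10 in the control samples against 19, 23 and 24 in the cKO samples (1.40). Bfsp1 stood at 0.1945, 0.0948 and 0.163 CPM in control and at 0.396, 0.389 and 0.430 CPM in cKO. Not all control samples reached the filter limit of 0.173 CPM. Bfsp1 thus entered the test, like Prph, through the group where it was high. Its call is a description of the gene and no independent support. Lower were Sync, whose product syncoilin binds desmin (log2 fold change -0.24), and Iffo1 (-0.20). The B-type lamin genes Lmnb1 (-0.18) and Lmnb2 (-0.23) were lower too. The call of Lmnb1 was lost without control replicate 1 (adjusted p = 0.0949, edgeR). Lmna, the most abundant gene of this list per kb, had 1631 ± 24.7 CPM in control against 1567 ± 59.6 CPM in cKO, with overlapping groups (log2 fold change -0.08, adjusted p = 0.137, edgeR). Krt5 and Krt8 had at most 3 counts in each sample.

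Linkers that tie filaments to other structures were all tested, and of 8 genes 3 were lower and 0 higher. Eppk1, which encodes epiplakin, had a log2 fold change of -0.61, Macf1, the actin and microtubule crosslinker, -0.30, and Dst, which encodes dystonin, -0.17. Plec, encoding the plectin that anchors desmin at Z-discs and costameres, was the most abundant linker per kb, with 2088 ± 52.2 CPM in control against 2118 ± 9.36 CPM in cKO, overlapping groups and a log2 fold change of -0.0034 (SE 0.03, adjusted p = 0.963, edgeR). Of 7 genes for filament chaperones and turnover 1 was lower and 0 were higher: Hspb8, the most abundant per kb, from 1318 ± 29.9 to 1144 ± 111 CPM (log2 fold change -0.23). Cryab, the small heat shock protein that binds desmin, had a log2 fold change of -0.12 and was not called (adjusted p = 0.0857, edgeR).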

How the data were processed

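RNA-seq reads from 3 control and 3 cKO samples were aligned by the authors to mm10 with Bowtie2 2.3.4.2 and counted per gene with featureCounts 1.6.3. This aligner leaves out reads that cross exon junctions, which lowers genes with many short exons more than others. The deposited values used here are raw counts, 47944477 to 63323577 per sample. The strand setting, annotation and treatment of reads matching several places or overlapping several genes are not given in the sources used here. The authors' table of normalized counts, and their comparison columns from DESeq2 2.11.40.6 (base mean, log2 fold change, its standard error, Wald statistic, p-value and adjusted p-value), were not used.

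All 55536 identifiers matched GENCODE M21. Counts were tested with edgeR 4.0.16 (R 4.3.3; filterByExpr with a minimum count of 10, TMM scaling, and a quasi-likelihood test on genotype alone) and Benjamini-Hochberg adjustment over 22404 genes, with a threshold of 0.05. The biological coefficient of variation common to all genes was 3.92%. At that value counting error would be the larger part for the members other than Des, Vim and Nes. The spread of a single member can be larger than the common value, and it was not split into these parts. CPM are counts scaled to a common sample total, and levels are CPM divided by the union of exons in kb to compare genes. On simulated counts of these 22404 genes with 200 changed, edgeR recovered 94.5% and 4.55% of its calls were false, and DESeq2 1.42.0 recovered 88.5% with 3.28% false. The simulation gave all genes the same spread and changed only genes with more counts than Gfap, Ina and Nefl. Its changes were larger than those of Des, Nes and Vim, so the share recovered does not apply to these members. Every pair of replicates of a group differed by more than sampling noise. Alternatives were DESeq2, RLE factors, scaling by total counts, no filter, a replicate block, the longest transcript as length, and leaving out each sample. Counting the calls of each marker list under these, and the glial sum without Erbb3, were added after seeing the data. Pooled counts under the filter were compared by their ratio with an exact 95% conditional interval, which covers counting error only.

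The members, gene lists and tests were chosen with earlier results of these data known. Named in the text are all members, genes of the 3 filament lists that were called or most abundant, expressed genes overlapping a member, the 2 most abundant genes of each marker list and Hira; others are marked where they appear or are members of a count of 5 or fewer. A gene of the filament lists is not reported here. Python 3.11.15 with scipy 1.17.1 was used for ratios, permutation tests and sequences, and matplotlib 3.10.9 for plots.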

Additional observations from a re-analysis of the deposited data

How the results depend on the processing

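None of the 7 tested members changed direction under the 11 alternatives of the fit. Prph, Nefm and Synm kept their calls in all of them, while those of Des, Nes and Vim were lost as stated beside each gene. The number of members higher in cKO was 3 to 6, with 6 in the fit without the filter. The number lower was 2 in 8 alternatives and 0 in the 3 that leave out a control sample, which is also its range of 0 to 2 over the fits without 1 sample. Over all genes, 1571 to 2462 were higher and 917 to 1796 lower in the alternatives. In the fits without 1 sample, 917 to 1673 genes were lower, and the counts without control replicates 1, 2 and 3 were 917, 934 and 960. With each sample left out, the other filament genes and partners had 2 higher and 7 to 9 lower. The log2 ratio of Des to Vim differed by -0.27 to -0.21 and that of Nes to Vim by -0.27 to -0.18, with exact permutation p of 0.2 to 0.25, which are the smallest those designs allow. These p-values, too, follow from the separation of the single genes. With the longest transcript as length, the mean level over all samples was 1011 CPM per kb for Des and 963 for Vim.

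Replicate numbers are shared between the groups in the labels, but samples of the same number did not deviate together over all tested genes (correlations of -0.013, -0.0045 and -0.015). Such correlations cannot exclude a shared step that affected only some genes. With a replicate block 1901 genes were higher and 1251 lower, and 3 members were higher (Prph, Nefm and Synm) and 2 lower (Des and Nes). The adjusted p of Vim was then 0.0965. Depth limits Gfap, Nefl and Ina, which had 0 to 16 counts per sample, to intervals of counting error.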
